A study of Homo sapiens with 10 samples.

Results

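Kasumi-1 cells transduced with E2A were compared directly with Kasumi-1 cells transduced with HEB, by the RNA-seq read counts of 1 library each. The comparison took every gene with at least 30 reads in the 2 libraries together, which left 13944 measured genes of the 50868 in the table. Among the others, 22857 genes had no read in either library and 14067 had between 1 and 29. The table held 69 genes with exactly 29 reads, just outside the limit, and 67 with exactly 30, just inside it.

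Kasumi-1 is an established human myeloblastic leukemia line that carries the t(8;21) translocation, and 1 line stands for all groups here. The groups were cells given HA-tagged E2A, cells given HA-tagged HEB, cells given HA-tagged E2-2 and control cells given the empty MIGR1 retroviral vector, each as 1 RNA library. In all 4 groups GFP-positive cells were sorted on day 4 after infection, and the cells had been kept for 4 to 5 passages, per the labels. The ChIP-seq samples of the study were not analysed here. The libraries held 17673090 counts for E2A, 16791922 for HEB, 15728974 for vector and 14816708 for E2-2. In what follows, a series of 4 read counts is always in the order E2A, HEB, vector, E2-2.

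E2A, HEB and E2-2 are the E proteins, basic helix-loop-helix transcription factors encoded by TCF3, TCF12 and TCF4. They bind the E-box, a short DNA sequence written CANNTG, as dimers with each other or with tissue-specific partners, and the ID proteins hold them off DNA by pairing with them without binding DNA themselves. E2A is best known for driving B cell development, HEB for its part in T cell development and E2-2 for plasmacytoid dendritic cells. In t(8;21) leukemia the fusion protein AML1-ETO works in a complex that contains E proteins. The question of the comparison is which genes separate cells with added E2A from cells with added HEB.

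The promoters of 4 genes among those whose levels differ most are printed because the E-box is the sequence both factors recognise. Each line gives the 250 bases before the first RefSeq start of the gene in GRCh38.p14, read 5′ to 3′ on the strand of the gene, with every match to CANNTG in capitals. CPA3 (chr3:148865046-148865295, plus strand), ID2 (chr2:8681806-8682055, plus strand) and SSX1 (chrX:48255142-48255391, plus strand) were higher in E2A, and PRTN3 (chr19:840749-840998, plus strand) was higher in HEB.
CPA3: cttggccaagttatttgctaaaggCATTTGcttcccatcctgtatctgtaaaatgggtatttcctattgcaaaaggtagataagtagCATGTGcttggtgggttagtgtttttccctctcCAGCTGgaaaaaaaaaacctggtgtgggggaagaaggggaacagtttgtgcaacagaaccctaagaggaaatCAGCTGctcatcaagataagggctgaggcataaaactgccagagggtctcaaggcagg
ID2: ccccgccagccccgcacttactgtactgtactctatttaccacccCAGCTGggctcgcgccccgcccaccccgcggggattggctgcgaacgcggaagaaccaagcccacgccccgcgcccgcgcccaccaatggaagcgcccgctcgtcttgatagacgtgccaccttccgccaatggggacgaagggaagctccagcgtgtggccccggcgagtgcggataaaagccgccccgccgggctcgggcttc
SSX1: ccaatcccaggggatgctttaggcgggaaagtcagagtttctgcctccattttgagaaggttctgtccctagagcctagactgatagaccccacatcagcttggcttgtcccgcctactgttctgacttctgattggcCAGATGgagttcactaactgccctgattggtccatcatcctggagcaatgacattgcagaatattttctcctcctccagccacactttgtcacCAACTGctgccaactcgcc
PRTN3: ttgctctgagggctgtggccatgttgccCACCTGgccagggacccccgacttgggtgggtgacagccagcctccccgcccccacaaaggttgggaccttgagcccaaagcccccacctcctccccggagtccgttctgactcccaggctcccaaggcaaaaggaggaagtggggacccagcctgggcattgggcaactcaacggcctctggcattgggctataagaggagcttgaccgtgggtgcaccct
The CPA3 promoter held 4 matches and the SSX1 promoter 2, the ID2 promoter held 1 and the PRTN3 promoter 1. These 4 genes were chosen after their values were seen, from a set that also held ASS1, ID3 and FLNC. The promoters of ASS1, ID3 and FLNC, not printed here, held 0 matches each. CANNTG is palindromic in its fixed letters, so each match counts for both strands, and 62.2% of the 27305 RefSeq promoters of this length held at least 1. CAGCTG, the form found at 2 places in CPA3 and at 1 in ID2, stood in 13.8% of all promoters, CACCTG or its reverse complement in 17.5% and CATCTG or its reverse complement in 12.2%; each of these is also a CANNTG match. A promoter was at hand for 73.0% of measured genes but for only 57.8% of the genes called higher in E2A and 52.6% of those called lower. A comparison of motif shares between these groups is therefore void, since under 80% of the members had a sequence.

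The targeted genes matched the labels. TCF3, which encodes E2A, had 23186, 4201, 3934 and 3039 reads, or 1312, 254, 252 and 200 CPM (read counts scaled to a common library size). Its level was 5.17-fold higher in the E2A than in the HEB library, with a 95% interval of 5.00 to 5.34 for counting error. TCF12, which encodes HEB, had 2971, 13842, 2568 and 2206 reads and was 4.97-fold higher in the HEB library (4.78 to 5.18). The excess of each factor gene over its level in the other library was thus of like size. Reads from a transduced cDNA and from the cell's own gene are counted together, so these levels do not show what each contributed. TCF4, which encodes E2-2, had 4, 1, 4 and 12484 reads and was near the limit of detection in both libraries compared.

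The ID genes differed among themselves. ID2 had 2386, 456, 256 and 2506 reads and was 4.90-fold higher in E2A than in HEB (4.43 to 5.43). ID3 had 709, 241, 41 and 1360 reads and was 2.76-fold higher in E2A (2.38 to 3.20). Both genes were lowest in the vector library, with HEB above it and E2A and E2-2 higher still. ID1 had 497, 382, 459 and 251 reads, a ratio of 1.22 that was not called, and ID4 had 0 reads in all 4 libraries.

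Across all measured genes the 2 libraries were close. The median log2 fold of E2A over HEB was -0.01, the range from the 5th to the 95th percentile was -0.50 to 0.71, and 89.4% of genes lay within 1.5-fold. Calls asked for a fold of 2 or more, a counting interval without 1 and the 30 reads. By this rule 332 genes were higher in E2A, which is 2.38% of the measured genes, and 97 were lower, which is 0.696%. With 1 library per group there is no estimate of the spread between cultures, so no test was possible, no p-value is given, and a call describes these 2 libraries only. In bulk RNA, fewer cells that express a gene and less RNA per cell cannot be told apart.

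The excess of genes on the E2A side grew with the size of the difference. At a threshold of 4-fold, 69 genes were higher in E2A and 6 lower, and past 8-fold there were 14 and 1. SSX1 alone exceeded 16-fold. At the edge of the rule, 128 genes had a fold between 2 and 2.2 in either direction and 218 had one between 1.8 and 2. A further 24 genes passed 2-fold but had an interval that included 1.

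**Figure D1:**
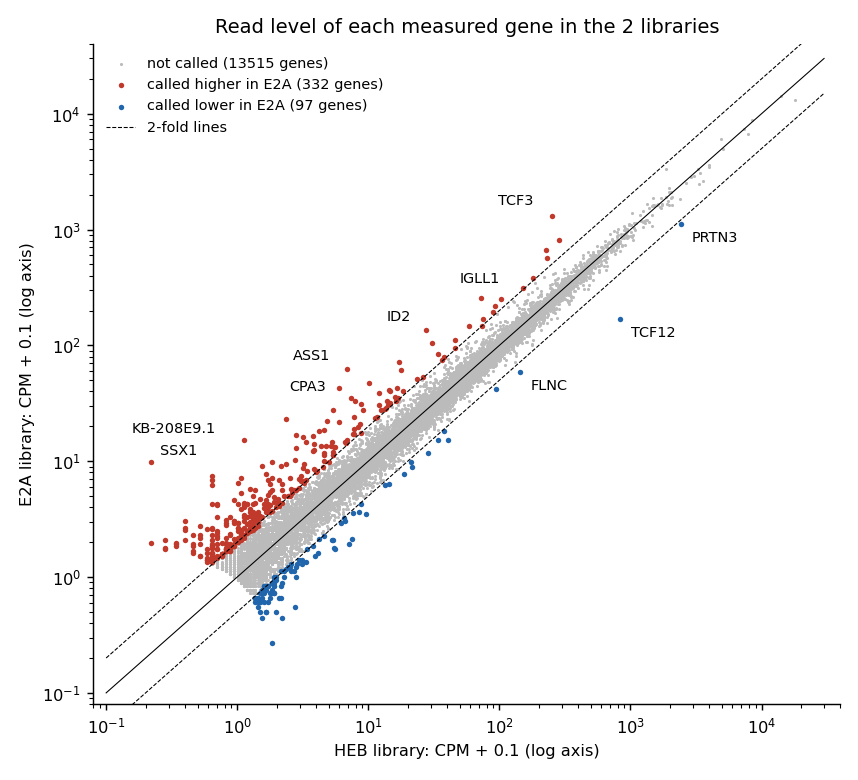
Level of each of the 13944 measured genes in the HEB library (horizontal) and the E2A library (vertical), in CPM plus 0.1 on log axes, with the 332 genes called higher in E2A in red and the 97 called lower in blue. The red points spread farther from the diagonal than the blue ones, and both thin out to the right, where genes with many reads lie close to the line.

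Calls were concentrated in genes with few reads. When the measured genes were ordered by reads and cut into 5 groups of nearly equal size, 7.09% of the lowest group, with 30 to 113 reads, were called higher in E2A. The share was 2.98% in the next group and 1.01%, 0.359% and 0.466% in the 3 groups above. With the limit raised to 100 reads, 146 of 11412 genes were called higher (1.28%) and 28 were called lower (0.245%). The median gene called higher had 3.62 CPM in E2A, 1.21 in HEB, 1.22 in vector and 3.43 in E2-2. The median gene called lower had 0.906 CPM in E2A, 2.12 in HEB, 1.60 in vector and 1.38 in E2-2. Pathways of highly expressed genes therefore start from a lower share of calls than the background, and pathways of genes with few reads from a higher one. Median reads are given for some pathways only, and the shares of the others are not free of this dependence on reads.

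**Figure D2:**
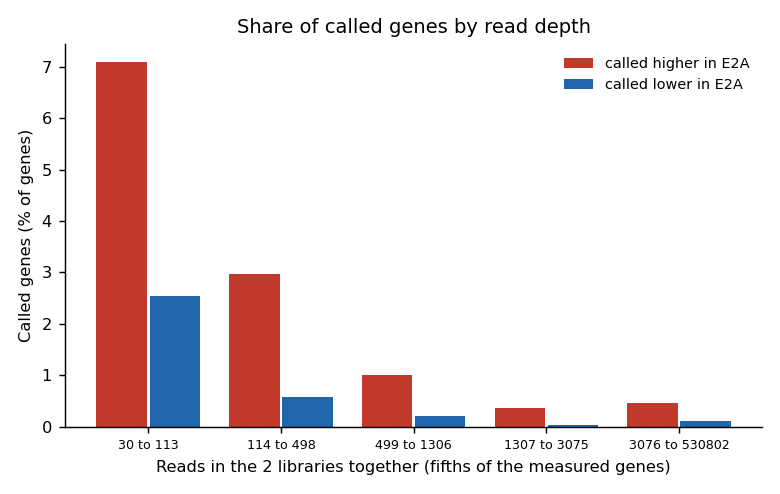
Share of genes called higher (red) and lower (blue) in E2A against HEB, for 5 groups of nearly equal size ordered by reads in the 2 libraries together. The share called higher is 7.09% in the group with the fewest reads and at most 1.01% in the 3 groups with the most.

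The gene that separated the 2 libraries most was SSX1, an X-chromosomal cancer-testis gene that is normally active in the germ line. It had 173, 2, 1 and 21 reads, so E2A was 81.0-fold above HEB with an interval of 22.1 to 674. E2A was the only library with more than 21 reads, and the near-identical genes of the SSX family make the assignment of its reads uncertain. ASS1, the argininosuccinate synthase of the urea cycle and of arginine synthesis, followed with 1112, 113, 29 and 233 reads and a fold of 9.22 (7.59 to 11.3). All 3 E protein libraries lay above vector for ASS1, in the order E2A, E2-2, HEB.

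CPA3, the carboxypeptidase of mast cell granules, had 758, 98, 1 and 486 reads and was 7.24-fold higher in E2A (5.86 to 9.03). It was all but silent in vector cells. FGFR3, a fibroblast growth factor receptor tyrosine kinase, had 491, 87, 20 and 524 reads and a fold of 5.29 (4.20 to 6.72). COBLL1 had 838, 166, 11 and 1370 reads and a fold of 4.73 (4.00 to 5.62). MZB1, a chaperone of the endoplasmic reticulum in B cells and plasmacytoid dendritic cells, had 125, 16, 12 and 123 reads and a fold of 7.32 (4.33 to 13.2). In FGFR3, COBLL1 and MZB1 the E2-2 library was above the E2A level.

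A second kind of gene stood high in the E2A library alone. LRRC15, a leucine-rich repeat membrane protein, had 130, 9, 0 and 8 reads and a fold of 13.5 (6.91 to 30.2). SORCS2, a sorting receptor of the VPS10 family, had 120, 9, 3 and 3 reads and a fold of 12.5 (6.36 to 27.97). TTLL10, a polyglycylase of the tubulin tyrosine ligase family, had 108, 9, 0 and 0 reads and a fold of 11.2 (5.71 to 25.2), but the antisense gene TTLL10-AS1 overlaps it and was called too. In these 3 genes the HEB, vector and E2-2 libraries all held fewer than 10 reads.

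The rest of the 15 highest genes were SH3TC1 (406, 37, 72 and 479 reads), SARDH, the sarcosine dehydrogenase of mitochondria (297, 45, 19 and 63 reads), MT1M, a metal-binding metallothionein (113, 15, 3 and 132 reads), and the pseudogene AOX2P (159, 24, 1 and 153 reads). Their folds over HEB ran from 6.18 for SARDH to 10.3 for SH3TC1. In SH3TC1 the HEB library was lower than vector, while in SARDH, MT1M and AOX2P it was higher.

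Several called genes had many reads and so a narrow interval; they were picked out after their values were seen. NPTX1, a secreted neuronal pentraxin, had 14233, 4724, 566 and 2113 reads, 2.82-fold more in E2A (2.73 to 2.92). TMCO3, a membrane protein with a transporter-like domain, had 11705, 3759, 1686 and 3222 reads, 2.92-fold more (2.81 to 3.03). TRH, the precursor of thyrotropin-releasing hormone, had 9942, 3840, 1792 and 16149 reads, 2.42-fold more (2.34 to 2.52). In all 3 genes HEB lay above vector and E2A above HEB, while E2-2 was below HEB in NPTX1 and TMCO3 and above E2A in TRH.

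In the other direction, the gene ranked after TCF12 by the interval bound nearest to no change was MIR663AHG, a non-coding host gene, with 3, 29, 22 and 13 reads. Its ratio of HEB to E2A was 10.3, but with 3 reads in E2A the interval ran from 3.20 to 52.9. CST7, the cysteine protease inhibitor cystatin F of leukocytes, had 8, 44, 5 and 18 reads and was 5.87-fold higher in HEB (2.73 to 14.4). EGR3, an immediate early zinc finger factor, had 6, 35, 4 and 21 reads and was 6.23-fold higher in HEB (2.59 to 18.1). CST7 and EGR3 were highest in HEB of the 4 libraries, with E2A near the vector level.

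PRTN3, the serine protease proteinase 3 of neutrophil granules, was the most abundant gene called lower. It had 19893, 40079, 28389 and 14601 reads and was 2.15-fold higher in HEB (2.11 to 2.19). HEB was above vector here, and E2A and E2-2 were below it. GAL, the neuropeptide galanin, had 747, 1545, 1321 and 754 reads and was 2.21-fold higher in HEB (2.02 to 2.41). TNFSF10, the death receptor ligand TRAIL, had 134, 310, 279 and 287 reads and was 2.47-fold higher in HEB (2.01 to 3.05). For GAL both E2A and E2-2 were low, whereas for TNFSF10 E2A was low and the other 3 libraries were alike.

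FLNC, the muscle filamin C that crosslinks actin, had 1047, 2356, 69 and 6110 reads and was 2.40-fold higher in HEB (2.23 to 2.59). It was far above vector in every E protein library. GPR84, a receptor for medium-chain fatty acids on myeloid cells, had 36, 122, 100 and 23 reads and was 3.62-fold higher in HEB (2.48 to 5.40). The chemokine genes CCL3L3, with 267, 673, 230 and 456 reads, and CCL4L2, with 205, 474, 43 and 930 reads, were 2.69-fold and 2.47-fold higher in HEB. Both chemokine genes have near-identical copies, so which copy their reads came from is uncertain.

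The other 4 of the 15 lowest genes ran from 2.78-fold to 3.87-fold higher in HEB. They were HIST1H2AC, a replication-dependent histone gene of a near-identical family (32, 116, 66 and 56 reads), PTPN22, a tyrosine phosphatase that restrains lymphocyte receptor signalling (29, 91, 48 and 45), KISS1R, the kisspeptin receptor (30, 89, 17 and 29), and ICAM5, a cell adhesion molecule (60, 156, 62 and 62). In these 4 genes HEB was the highest of the 4 libraries.

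**Figure D3:**
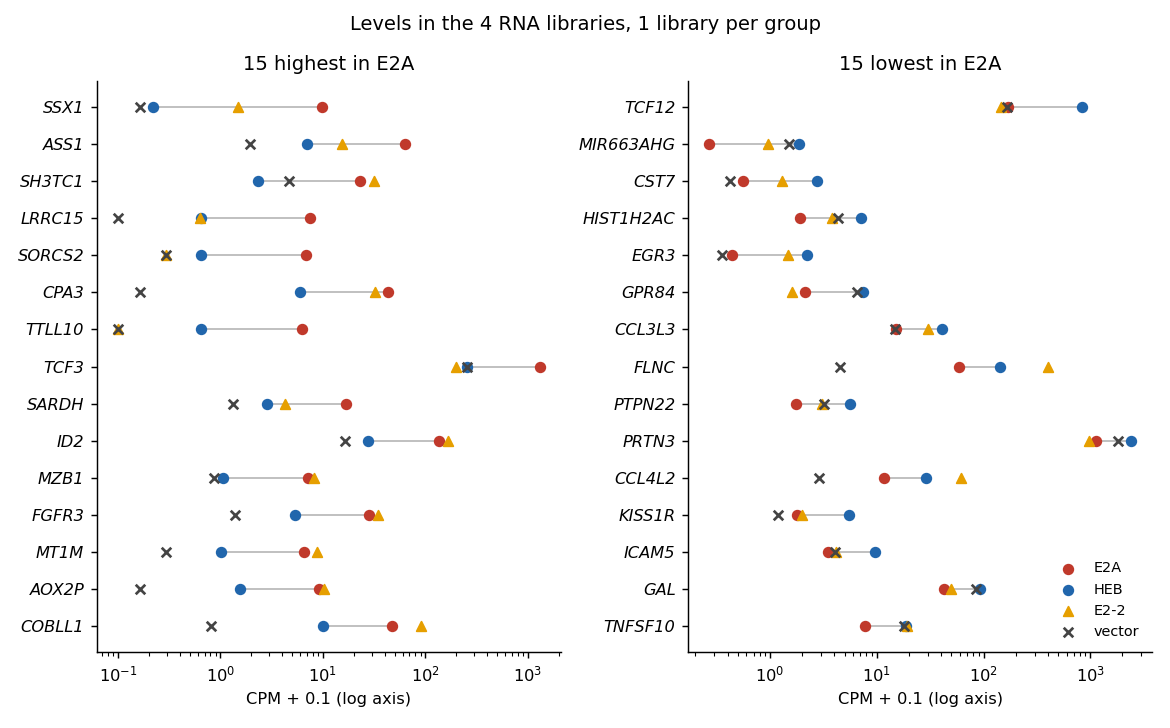
Levels of the 15 genes called highest (left) and lowest (right) in E2A against HEB, as CPM plus 0.1 on a log axis, with 1 point for each of the 4 libraries and a grey line joining E2A and HEB. On the left the vector library lies at or below HEB in all genes but SH3TC1, and, TCF3 aside, the E2-2 library ranges from the vector level in SORCS2 and TTLL10 to above E2A in COBLL1.

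The genes called higher in E2A over HEB were also often higher in E2-2 over vector, a pair that shares no library with the pair E2A and HEB. Of the 332 genes, 283 had 30 reads in the E2-2 and vector libraries together, and 177 of these (62.5%) were called higher in E2-2, against 7.73% of the 13564 genes measured in both pairs. These 177 genes made up 16.9% of the 1048 genes called higher in E2-2. Only 9 of the 283 (3.18%) were called lower in E2-2, against 3.47% of all genes. The median log2 fold of E2-2 over vector was 1.67 for the genes called higher in E2A and -0.03 for all measured genes. Among genes with at least 100 reads the share was 107 of 139 (77.0%), against 6.35%. The read limit on E2-2 and vector kept 13564 of the 13944 measured genes but only 283 of the 332. A gene low in vector passes that limit only when E2-2 is high, so the limit favours genes raised in E2-2. SSX1, LRRC15, SORCS2 and TTLL10 fell short of it. The shares therefore hold for the genes kept, and counted against all genes called higher the 177 are of 332.

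The genes called lower in E2A showed no such preference. Of the 77 measured in both pairs, 12 (15.6%) were called higher in E2-2 and 14 (18.2%) lower. Both shares exceeded the background of 7.73% and 3.47%, and the median log2 fold of E2-2 over vector was -0.19. The pattern is a description of single libraries, and all 4 entered the same scaling.

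Pathways were taken from the KEGG and GO columns of the table and described by the number of measured members called. Of the 4171 measured genes with a KEGG pathway, 78 were higher in E2A (1.87%) and 25 lower (0.599%); for the 11555 genes with a GO term the counts were 237 (2.05%) and 65 (0.563%). These shares, rather than those of all genes, are the nearest background for a pathway. GO terms are listed with all their parent terms, so terms overlap heavily.

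Genes of the cell surface and of secretion held more calls than the average in both directions. Of 626 measured genes annotated as integral components of the plasma membrane, 31 were higher in E2A (4.95%) and 11 lower (1.76%). The shares over all genes with a GO term were 2.05% and 0.563%. For the extracellular space the counts were 23 and 11 of 504, and for receptor activity 25 and 10 of 502. These terms hold genes of fewer reads than the intracellular ones, with a median of 423.5 reads for receptor activity against 1675 for the nucleus. With at least 100 reads, 15 of 495 integral plasma membrane genes were higher (against 1.28% of all genes at that limit) and 8 were lower.

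Among the receptors, TNFRSF18, the T cell costimulatory receptor GITR, had 172, 29, 0 and 17 reads and was 5.55-fold higher in E2A (3.73 to 8.54). P2RY14, a receptor for UDP-sugars, had 292, 61, 16 and 861 reads and was 4.48-fold higher in E2A (3.39 to 6.01). F2RL3, the thrombin receptor PAR4, had 52, 5, 3 and 53 reads and was 9.74-fold higher in E2A (3.92 to 31.2). TNFRSF18 was highest in E2A, while P2RY14 was highest in E2-2 and F2RL3 was close between those 2 libraries.

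Of 69 measured members of the KEGG pathway of neuroactive ligands and their receptors, 6 were lower in E2A (8.70%) and 2 higher (2.90%). That balance moved with the setting: from FPKM values 2 were lower and 2 higher, at 1.5-fold 10 and 8, and at 4-fold none and 2. The 6 were KISS1R, MC1R, the melanocortin receptor (111, 235, 304 and 125 reads), P2RY6, a receptor for UDP (61, 124, 63 and 63), ADRA2B, an adrenergic receptor (73, 144, 0 and 306), GIPR, the receptor of a gut hormone (10, 28, 26 and 7), and LPAR6, a lysophosphatidic acid receptor (13, 26, 18 and 31). Their vector levels had no common pattern, from 0 reads for ADRA2B to 304 for MC1R. The median log2 fold of the pathway was -0.06, and its members had a median of 153 reads. Among all genes with a KEGG pathway, 0.599% were lower and 1.87% higher.

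Ligands of the immune system were also called lower more often than higher at the 2-fold limit, on few genes. Of 50 measured genes with cytokine activity, 4 were lower in E2A (CCL3L3, CCL4L2, TNFSF10 and KITLG) and 1 was higher (C5, a complement component). The shares were 8% and 2%, against 0.563% and 2.05% of genes with a GO term. That balance moved with the setting. With no limit but more than 3 reads in 1 library, 5 were lower and 4 higher. At 1.5-fold the counts were 7 and 4, and at 4-fold there were none either way. From FPKM values and with at least 100 reads, 3 were lower and 1 higher. The median log2 fold of the term was -0.03, and its members had a median of 614 reads. KITLG, the ligand of the KIT receptor, had only 7, 23, 9 and 8 reads. In the KEGG pathway of cytokines and their receptors, 4 of 91 were higher and 4 lower (4.40% each, against 1.87% and 0.599%). The 4 higher were all receptors: TNFRSF18, FLT3, IL21R and BMPR1B. Of the 4 lower, CCL4L2, TNFSF10 and KITLG are ligands and ACVR2A is a receptor of activins.

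In the KEGG pathway of the hematopoietic cell lineage, 3 of 38 measured members were higher in E2A (7.89%, against 1.87% of genes with a KEGG pathway) and 1, KITLG, was lower (2.63%, against 0.599%). With at least 100 reads, 2 of 29 were higher and none lower. FLT3, a receptor tyrosine kinase of progenitors and dendritic cells, had 489, 207, 65 and 692 reads and was 2.21-fold higher in E2A (1.88 to 2.62). CD9, a tetraspanin, had 80, 26, 1 and 239 reads and was 2.88-fold higher (1.83 to 4.67). CD22, an inhibitory receptor of B cells, had 28, 12, 28 and 9 reads and passed narrowly. The stem and progenitor receptor KIT differed little, with 13607 reads in E2A and 12285 in HEB, as did CD34 with 2638 and 2150.

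Of the 9 measured B lymphoid markers, 3 were called higher in E2A (IGLL1, CD79A and CD22) and none was called lower. Over all measured genes, 2.38% were called higher and 0.696% lower. CD24 went the other way with 580, 965, 881 and 656 reads. It was 1.78-fold higher in HEB (1.60 to 1.97), under the 2-fold limit. IRF4, with 29, 36, 33 and 90 reads, was not called. IGLL1, the surrogate light chain of the pre-B cell receptor, had 4569, 1199, 601 and 2558 reads and was 3.57-fold higher in E2A (3.35 to 3.81). CD79A, a signalling chain of the B cell receptor, had 75, 35, 30 and 141 reads and was 2.01-fold higher (1.33 to 3.09). CD79B, its partner chain, was not called with 211, 174, 160 and 136 reads. PRKCB, the protein kinase C that acts downstream of that receptor, had 2620, 1219, 879 and 2789 reads and was 2.01-fold higher (1.88 to 2.16).

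Under the GO term B cell differentiation, 6 of 69 measured members were higher in E2A and none lower. The share higher was 8.70%, against 2.05% of genes with a GO term, and 1 of the 6 was the transduced TCF3. The others were ID2, LGALS1, DLL1, FLT3 and CD79A. LGALS1, the glycan-binding protein galectin 1, had 681, 198, 28 and 664 reads and a fold of 3.22 (2.75 to 3.79). Most B lymphoid markers stayed low: only 9 of 19 in the marker list were measured, MS4A1 had no read in either library, and the list summed to 321 CPM in E2A, of which IGLL1 made up 259, and to 154 in HEB, of which it made up 72.5. The sum was 118 CPM in vector and 259 in E2-2.

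The KEGG pathway of primary immunodeficiency, which gathers genes of lymphocyte development, had a median log2 fold of 0.16 over 19 measured members. IGLL1 and CD79A, both higher in E2A, were its 2 called members (10.5%, against 1.87% of genes with a KEGG pathway). The measured members had a median of 786 reads. ADA, the adenosine deaminase, had 1027, 523, 285 and 2763 reads and a ratio of 1.84 (1.65 to 2.05), and CD4 had 1504, 912, 633 and 1143 reads and a ratio of 1.54 (1.42 to 1.68). RAG1, which cuts antigen receptor genes, was level between the libraries with 33, 29, 12 and 104 reads. T cell receptor signalling, by KEGG, had none of 74 members called in either direction. Among all genes with a KEGG pathway 1.87% were higher and 0.599% lower, so a pathway of that size holds few calls at those shares.

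Under the GO term type I interferon signalling, 6 of 57 measured members were higher in E2A (10.5%, against 2.05% of genes with a GO term) and none lower, and the median log2 fold was 0.16. With at least 100 reads, 3 of 48 were higher. The measured members had a median of 734 reads. Under the GO term defense response to virus, 8 of 210 were higher (3.81%) and 1, PTPN22, was lower (0.476%, against 0.563%). RSAD2, the antiviral enzyme viperin, had 99, 19, 27 and 245 reads and a fold of 4.88 (2.97 to 8.45). ISG20, an RNA exonuclease, had 120, 27, 43 and 93 reads and a fold of 4.16 (2.72 to 6.58). For both genes the HEB library was the lowest of the 4.

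MX2, a dynamin-like GTPase against viruses, had 35, 3, 2 and 16 reads, and OAS3, a sensor of double-stranded RNA, had 75, 21, 16 and 159. IRF1 had 632, 265, 277 and 758 reads and was 2.23-fold higher in E2A (1.93 to 2.59), and IRF8, the factor of dendritic cells and monocytes, had 39, 13, 5 and 56 reads. Common interferon-induced genes of the same term did not pass 2-fold: ISG15 had 188, 139, 134 and 322 reads, and IFIT1 405, 329, 521 and 345. The summed level of the term was 5285 CPM in E2A and 5714 in HEB. That sum is lower in E2A although most members are higher, because HSP90AB1, with 32288 and 39458 reads, makes up a large part of it.

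Genes of growth control were called in E2A through a few members. In the KEGG p53 pathway, 4 of 57 measured members were higher in E2A and 1 was lower. These shares, 7.02% and 1.75%, stood against 1.87% and 0.599% of genes with a KEGG pathway. The median log2 fold was -0.02 in the pathway and -0.03 over those genes. CCND3, a D-type cyclin that drives entry into S phase, had 4418, 1708, 229 and 5874 reads and was 2.42-fold higher in E2A (2.29 to 2.56). CD82, a tetraspanin, had 579, 227, 46 and 1223 reads and a fold of 2.39 (2.05 to 2.80). THBS1, a secreted matrix protein, had 233, 89, 44 and 340 reads and a fold of 2.45 (1.91 to 3.17). PERP, a desmosome-linked membrane protein, had 42, 10, 20 and 14 reads. In CCND3, CD82 and THBS1 the levels ran in the order vector, HEB, E2A, E2-2.

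SESN2, a stress sensor that restrains mTORC1, was the member lower in E2A, with 318, 625, 505 and 271 reads and 2.099-fold more in HEB (1.83 to 2.41). Other well-known members were close: CDKN1A had 629 and 597 reads in E2A and HEB, and MDM2 had 809 and 822. CCND3 was also the only call among the 111 measured genes of the KEGG cell cycle pathway. Under the much wider GO term cell cycle, 22 of 1442 were higher in E2A and none was lower, a share of 1.53% that lies under the background.

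In TGF-beta signalling, 4 of 55 measured members were higher in E2A (ID2, CHRD, THBS1 and BMPR1B) and 1, ACVR2A, was lower. The shares were 7.27% and 1.82%, against 1.87% and 0.599% of genes with a KEGG pathway, and the median log2 fold was -0.02. CHRD, the secreted BMP antagonist chordin, had 164, 37, 2 and 1708 reads and was 4.15-fold higher in E2A (2.89 to 6.10), far below its E2-2 level. Transcriptional misregulation in cancer had 6 of 110 higher (5.45%, against 1.87%) and none lower, with a median log2 fold of 0.01. The 6 were SSX1, the transduced TCF3, ID2, TSPAN7, FLT3 and MYCN. MYCN, a MYC family factor, had 58, 19, 28 and 48 reads and a fold of 2.86 (1.68 to 5.08). For Notch signalling, the ligand gene DLL1 was higher in E2A with 39, 9, 13 and 44 reads, and the ligand gene JAG1 was lower with 35, 88, 48 and 45 reads. No Notch receptor gene was called.

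Metabolic pathways differed mostly by small amounts, with some exceptions. Steroid biosynthesis had the lowest median log2 fold of the KEGG pathways on the list, -0.37 over 17 measured members. All 17 were lower in E2A than in HEB, 12 of them with an interval that excluded 1, against 52.0% lower and 21.7% lower with such an interval among all measured genes. Only CEL, a lipase with 13, 34, 26 and 18 reads, passed 2-fold. DHCR7, the last enzyme of cholesterol synthesis, had 1832, 2950, 2327 and 1530 reads and was 1.72-fold higher in HEB (1.62 to 1.82). SQLE, the squalene epoxidase, had 5443, 5609, 4677 and 4473 reads. The 17 members lay below 1 under each of the 4 scalings tried. Over members with at least 100 reads the median log2 fold was -0.23, and the 1 call was lost. Glycolysis and gluconeogenesis leaned the same way, with 30 of 41 measured members lower in E2A, 24 of them with an interval that excluded 1. Its median log2 fold was -0.17, and its 1 called member, ALDH2, was higher in E2A. Among all genes with a KEGG pathway, 44.3% lay above a log2 fold of 0, and the median was -0.03.

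In the KEGG pathway of glycine, serine and threonine, 3 of 25 measured members were higher in E2A (12%) and 1 was lower (4%). The shares over genes with a KEGG pathway were 1.87% and 0.599%. With at least 100 reads, 2 of 21 were higher and none was lower. PHGDH, the first enzyme of serine synthesis, had 5504, 2526, 2234 and 2368 reads and was 2.04-fold higher in E2A (1.95 to 2.14), so that E2A alone stood apart. GNMT, which makes sarcosine, and SARDH, which breaks it down, were higher too, GNMT with only 25, 11, 23 and 18 reads. CTH, which makes cysteine, was lower in E2A with 27, 67, 52 and 45 reads. PSAT1, the enzyme after PHGDH, had 2324, 1718, 1413 and 1317 reads and a ratio of 1.27, while PSPH, the last step, had 285, 478, 523 and 220 reads and a ratio of HEB to E2A of 1.79. The 3 steps of serine synthesis therefore did not move together.

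None of 123 ribosomal genes, 123 spliceosome genes, 70 ribosome biogenesis genes or 33 DNA replication genes by KEGG was called in either direction, and these pathways have a median of 1956 to 5339 reads. Among all genes with 1307 reads or more, 0.359% and 0.466% were called higher in the 2 groups of that depth. Protein processing in the endoplasmic reticulum had none of 144, the lysosome none of 101. By GO, 2 of 736 nucleolar genes and 3 of 589 translation genes were higher, and none was lower. Mitochondrial genes by GO had 12 higher and 4 lower of 1359. The 15 mitochondrially encoded genes summed to 55396 CPM in E2A and 55417 in HEB.

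**Figure D4:**
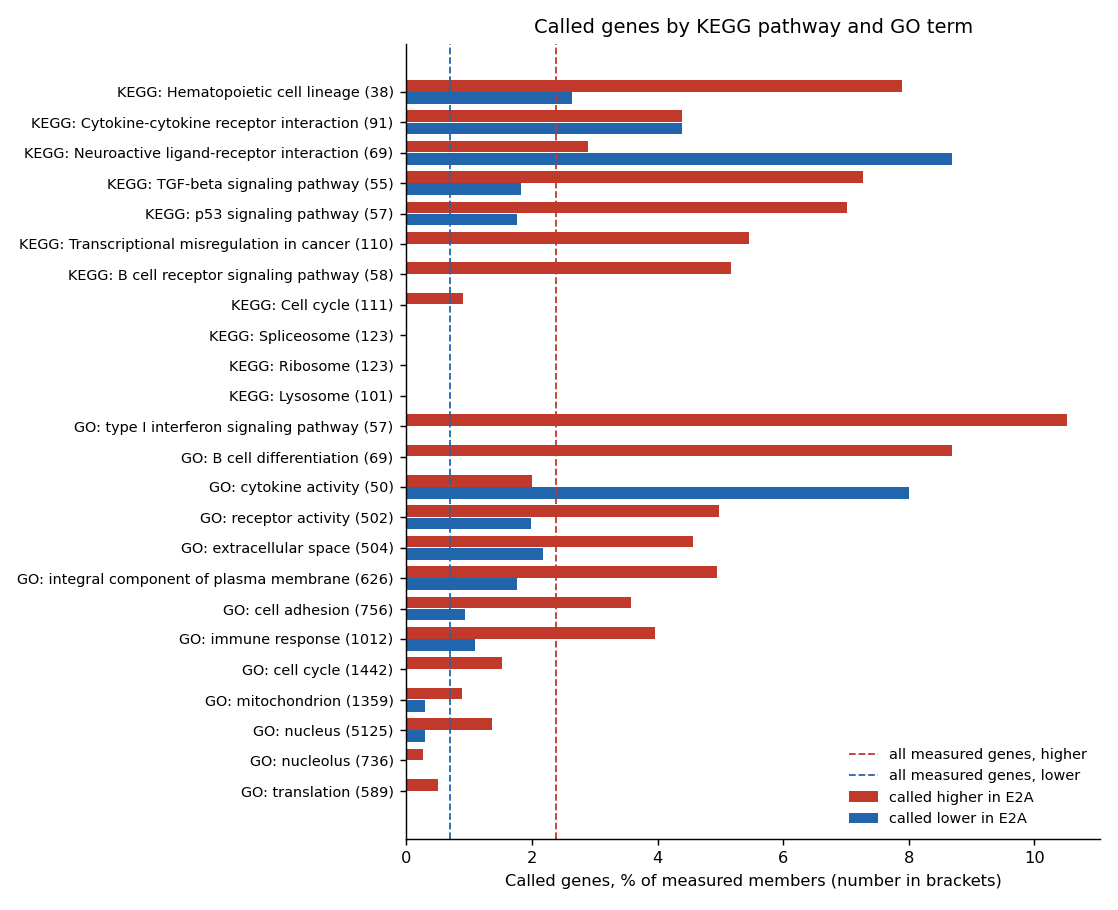
Share of measured members called higher (red) and lower (blue) in E2A against HEB for 11 KEGG pathways and 13 GO terms, with the number of measured members in brackets and dashed lines at the shares of all measured genes. Surface, secretion and immune terms exceed the line for genes called higher, except cytokine activity. Type I interferon signalling, B cell differentiation and B cell receptor signalling have no blue bar. Ribosome, spliceosome and lysosome have no bar of either colour.

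**Figure D5:**
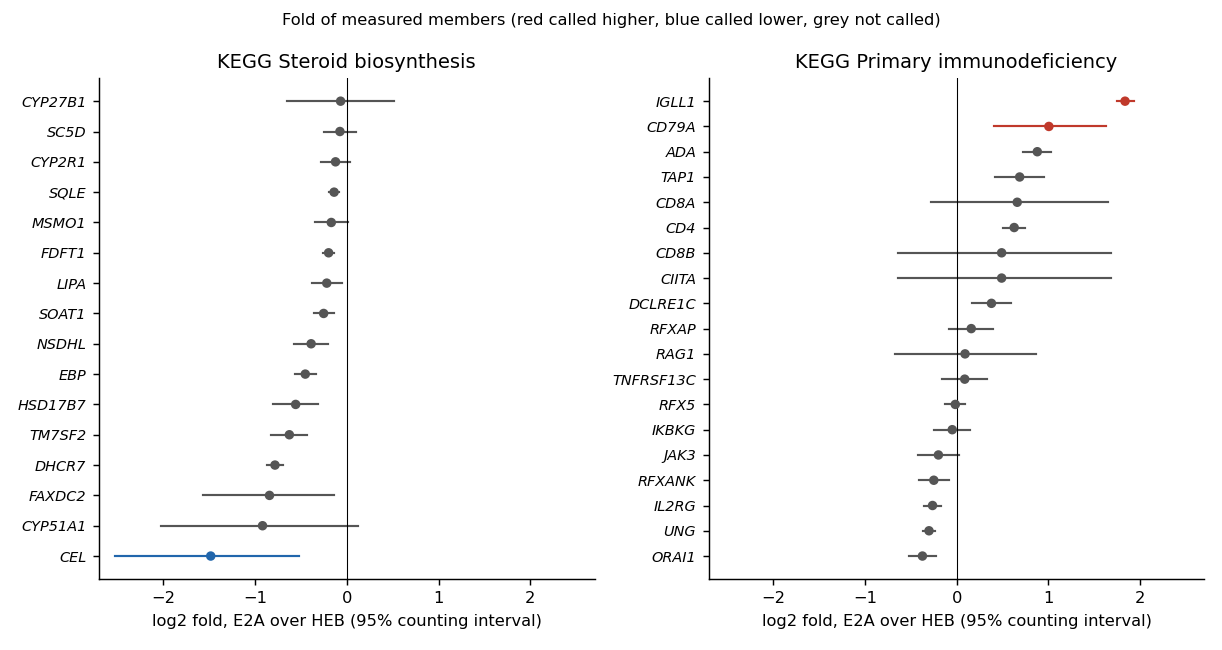
Log2 fold of E2A over HEB for measured members of 2 KEGG pathways, with 95% counting intervals as lines. 1 member of steroid biosynthesis is not drawn; the points drawn for that pathway all lie below 0, and 12 of the 19 points of primary immunodeficiency lie above 0.

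Among all 225 KEGG pathways with 20 to 300 measured members, the highest shares of genes higher in E2A rested on 3 or 4 genes each. Drug metabolism by cytochrome P450 had 3 of 20 (15%), which were CYP2E1 and the near-identical UGT2B28 and UGT2B11, and the same UGT2B pair recurred in other pathways of this ranking. Among 3084 GO terms of that size, extracellular matrix binding led with 6 of 29 (20.7%), and its measured members had a median of 439 reads. Its 6 genes were LRRC15, LGALS1, THBS1, OLFML2B, SPOCK2 and ADGRG1. Terms on regulation of phosphatidylinositol 3-kinase followed with FGFR3, NOD2, FLT3 and IRS1 in each.

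The GO terms with the highest share lower in E2A rested on 3 or 4 genes each. Neuropeptide signalling had 3 of 23 (13.0%), namely GPR84, KISS1R and GAL. Negative regulation of tumor necrosis factor production had 3 of 26 (PTPN22, MC1R and BPI). These terms were picked by their share from all terms of that size, so the shares are a description of the extremes.

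The lists of cell type markers held few calls each, and whether the kinds of cell differed was not tested. Over all measured genes, 2.38% were called higher in E2A and 0.696% lower. Of 14 measured granulocytic markers, 3 were lower in E2A and none higher: PRTN3, RNASE2, the eosinophil-derived ribonuclease (269, 565, 440 and 213 reads), and BPI, an antibacterial granule protein (55, 106, 52 and 102). MPO, the myeloperoxidase of primary granules, had 232710, 298092, 231819 and 170661 reads and was 1.37-fold higher in HEB (1.36 to 1.38), under the 2-fold limit. AZU1 had 7831, 10712, 9914 and 4991 reads, but ELANE had 6308, 6286, 6478 and 4125 and CTSG had 161, 112, 110 and 62. The summed granulocytic level was 16759 CPM in E2A, 23028 in HEB, 18950 in vector and 14471 in E2-2, most of it MPO.

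Of 9 measured plasmacytoid dendritic cell markers, MZB1, PLAC8 (426, 191, 49 and 612 reads) and IRF8 were higher in E2A, while the defining LILRA4, TLR7 and TLR9 had no read in either library. IL3RA and IRF7 of that list were nearly level, with ratios of 1.03 and 0.97, and the list median log2 fold was 0.28. ID2 and FLT3 were the 2 of 6 conventional dendritic markers called higher, with CD1C, CLEC9A, CLEC10A and FCER1A at 0. The other measured members were not called. THBD had 134, 220, 82 and 459 reads, 1.75-fold more in HEB (1.41 to 2.19), and ITGAX was 1.34-fold higher in HEB (1.03 to 1.75). BATF3 and ZBTB46 had ratios of 0.95 and 0.98, and the list median log2 fold was -0.05. In the mast cell and basophil list CPA3 was higher and HDC, the histamine-forming enzyme, was lower with 10, 24, 15 and 4 reads. LILRB1 was the only call among 6 measured monocytic markers, with CD68 and FCGR3A at 0, and ADGRG1 the only one among 9 stem and progenitor markers. No marker of T and NK cells, of erythroid cells and megakaryocytes, or of epithelial, fibroblast or packaging cells was called. Each of these lists had only 4 measured markers, and lists this short hold hardly any call at the shares over all measured genes.

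Heat shock genes HSPA1A and HSPA1B were higher in the E2A library. HSPA1A had 1488, 566, 534 and 537 reads and was 2.46-fold higher in E2A (2.23 to 2.72), and its near-identical copy HSPA1B had 909, 385, 355 and 349. HSPA8, the constitutive family member, had 59396, 31018, 27410 and 28121 reads, a ratio of 1.79 that was not called. In all 3 genes E2A stood apart from the other 3 libraries. Of the 18 measured immediate early and stress genes, these 2 HSPA1 genes were higher and EGR3 was lower. None of the 16 housekeeping genes was called, and their median log2 fold was -0.06. Over all measured genes 2.38% were called higher and 0.696% lower, so lists of this size hold few calls at those shares. The part of a stress response in the calls was not tested.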

How the data were processed

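The authors deposited 1 table holding raw read counts (whole numbers, 1 column per library) beside their own FPKM values, per the file headers. Per the submitters' processing notes, TopHat2 2.0.9 and HTSeq 0.9.1 were among the tools and hg38 and hg19 the builds; the step that each belongs to, the annotation and the strand setting were not stated in the labels. Antisense, overlapping and near-identical genes are therefore uncertain. Counts were scaled over the 4 RNA libraries by TMM in edgeR 4.0.16 (R 4.3.3). Folds have 95% exact conditional binomial (Clopper-Pearson) intervals computed with scipy 1.17.1 in Python 3.11.15. The intervals cover counting error only, since 1 library per group gives no estimate of the spread between cultures. Duplicate reads are not marked in the counts, so the intervals may be too narrow even for that error. The floor of 3 reads equals 0.170 CPM in E2A and 0.181 in HEB. The call rule was tried only on simulated counts with counting error and no spread between cultures, in which the changed genes lay well past the 2-fold limit. That simulation cannot show whether the calls would hold in another culture.

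Named were the E protein and ID genes, the 15 called genes each way whose interval bound lay farthest from no change (passing over clone identifiers), up to 4 called members per direction of a described pathway and the called markers; genes named beyond these were picked after their values were seen. The pathways were 49 KEGG and 48 GO names, and besides these the 6 terms each way with the highest share. There were 16 marker lists. Genes and lists were chosen with earlier results of these data known. Values of 3 genes are not reported here. Promoters are from RefSeq, GRCh38.p14. Alternatives were median-of-ratios scaling (DESeq2 1.42.0), library totals, TMM over 2 libraries, other read limits, fold limits and intervals, FPKM with a pseudocount of 0.1, and, chosen after seeing the data, RefSeq protein-coding genes only.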

Additional observations from a re-analysis of the deposited data

How the results depend on the processing

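Scaling hardly mattered: the counts of genes higher and lower in E2A were 335 and 96 with median-of-ratios size factors, 344 and 88 with library totals and 332 and 97 with TMM over the 2 libraries. Read and fold limits set the counts. With at least 100 reads they were 146 and 28, and with no limit but more than 3 reads in 1 library 581 and 222. At 1.5-fold they were 727 and 350, and at 4-fold 69 and 6. With a wider interval they were 234 and 45, from FPKM values 228 and 48, and among RefSeq protein-coding genes, an alternative chosen after seeing the data, 220 and 61. The side higher in E2A was the larger in each of these settings. Of 32 named factor, ID and top-ranked genes, none changed direction in any setting that kept it, and 12 fell short of the 4-fold limit: ID3 and 11 of the genes higher in HEB. No paired analysis was possible because each group is 1 library. Nor could a library be left out, so whether another culture would show the same genes was not tested. At few reads only large differences can be seen: 24 genes passed 2-fold with an interval that included 1.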

Other observations

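Some of the genes called higher in E2A are neighbours, a pattern looked for after seeing the data. On chromosome 22, AP000344.4, AP000345.1, PCAT14, IGLL1 and KB-208E9.1 are 5 measured genes in a row, from 23446598 to 23583859 in the table's coordinates, and all 5 were called higher. KB-208E9.1, whose start lies just past the end of IGLL1, had 268, 17, 3 and 65 reads in the E2A, HEB, vector and E2-2 libraries, a fold of 14.8 (9.05 to 25.7). PCAT14 had 208, 74, 17 and 263 reads.

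On chromosome 13, DCUN1D2, TMCO3, RP11-230F18.6 and RP11-230F18.5 were called together, the last 2 of them inside TMCO3, so their reads cannot be separated from those of TMCO3 without the strand. DCUN1D2, which ends just before TMCO3 starts, had 2960, 1244, 832 and 1034 reads and a fold of 2.23 (2.08 to 2.38). On chromosome 17, KIF19, GPR142, CD300C, CTD-2006K23.1 and RAB37 were 5 calls among 7 measured genes in a row. On chromosome 9, DBH, DBH-AS1 and SARDH were called side by side, with 60, 97 and 297 reads in E2A and 20, 21 and 45 in HEB. In all, 10 such groups of at least 3 calls, with at most 2 uncalled measured genes between neighbours, were found. Each was on the side higher in E2A, and none was among the genes lower in E2A. With 332 genes called higher and only 97 lower, groups form more easily on the E2A side, and no expected number was worked out. Some groups hold overlapping or antisense genes.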
